A study of Mus musculus with 6 samples.

Results

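Genes of triglyceride hydrolysis and fatty acid uptake were compared in whole livers of newborn mice whose mothers had eaten different oils. The set was named as 9 genes: Lpl, Gpihbp1, Angptl4, Lipc, Lipg, Vldlr, Cd36, Fabp1 and Fabp4. Of these, 8 had a probe annotated to that symbol alone, among 19938 such genes on the array, and Lipc was not analysed here. Where a gene has several such probes, the brightest by the mean of the 6 arrays stands for it, but each of the 8 had 1 probe, so no choice was made. All 8 had a mean log2 signal of at least 5 and were tested.

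The 6 Affymetrix arrays carried total RNA from C57Bl6/J liver, 2 arrays for each maternal diet, each from a pool of 3 livers. Female mice, 4 to 5 weeks old, were given isocaloric diets with 6 g% of oil: flaxseed oil, a source of alpha-linolenic acid (ALA group), coconut oil, a source of saturated fatty acids (SFA group), or soybean oil (Control group). Males ate regular chow and shared the diet of the females while mating. Livers were taken within 1 day of birth, and the labels do not say whether the 2 pools of a diet came from separate litters, so the p-values measure only the spread between these arrays, which may be technical.

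Lipoprotein lipase (Lpl) splits the triglycerides of chylomicrons and very low density lipoproteins at the capillary wall. Gpihbp1 carries the enzyme across the endothelial cell and holds it there, Angptl4 inhibits it, and Vldlr, the VLDL receptor, binds triglyceride-rich particles. The endothelial lipase Lipg acts mainly on the phospholipids of high density lipoproteins. Cd36 helps fatty acids to cross the plasma membrane, and the fatty acid binding proteins carry them inside the cell, Fabp1 in hepatocytes and Fabp4 in adipocytes, macrophages and capillary endothelium. In rodents, liver Lpl is known to be active in the perinatal period and to be shut down in the adult.

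The sex-linked genes placed the pools apart. Signal of Eif2s3y, Uty and Kdm5d, which lie on the Y chromosome, was present on both ALA arrays and on Control replicate 2. On the other 3 arrays these genes reached at most 4.42, which serves here as a mark of low signal. Xist, expressed from the inactive X chromosome of females, had log2 signals of 3.76 and 4.24 in the ALA pools, 9.46 and 9.51 in the SFA pools, and 10.67 and 8.34 in the Control pools. Diet and the sex makeup of the pools therefore cannot be told apart when ALA is set against SFA. Xist was also called lower in ALA than in Control livers by limma. Neither Control pool matched the ALA pools, as each carried Xist signal. The part of sex makeup in the ALA minus Control changes was not tested. The median over all probes ran from 4.76 to 4.96, with both SFA pools lowest.

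Lpl and Fabp4 rose in both diet groups relative to Control, and they were the members with the widest range over the arrays. Lpl had log2 signals of 9.16 and 9.87 in the ALA pools, 10.02 and 10.07 in the SFA pools, and 5.67 and 6.45 in the Control pools. Every ALA and SFA array lay above both Control arrays. The log2 change was 3.45 for ALA minus Control (SE 0.30, adjusted p = 0.0034, limma) and 3.98 for SFA minus Control (SE 0.30, adjusted p = 0.0018), or 10.96-fold and 15.8-fold. Both comparisons use the same 2 Control arrays.

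Fabp4 had log2 signals of 8.05 and 7.70 in the ALA pools, 8.17 and 7.96 in the SFA pools, and 5.99 and 5.39 in the Control pools. Again no Control array reached the lowest array of either other group. The change was 2.19 for ALA minus Control (SE 0.23, adjusted p = 0.0047, limma) and 2.38 for SFA minus Control (SE 0.23, adjusted p = 0.0030), or 4.56-fold and 5.19-fold. The members were chosen by their differences between the diets in these same arrays, so the p-values describe the fit and are no independent evidence.

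**Figure D1:**
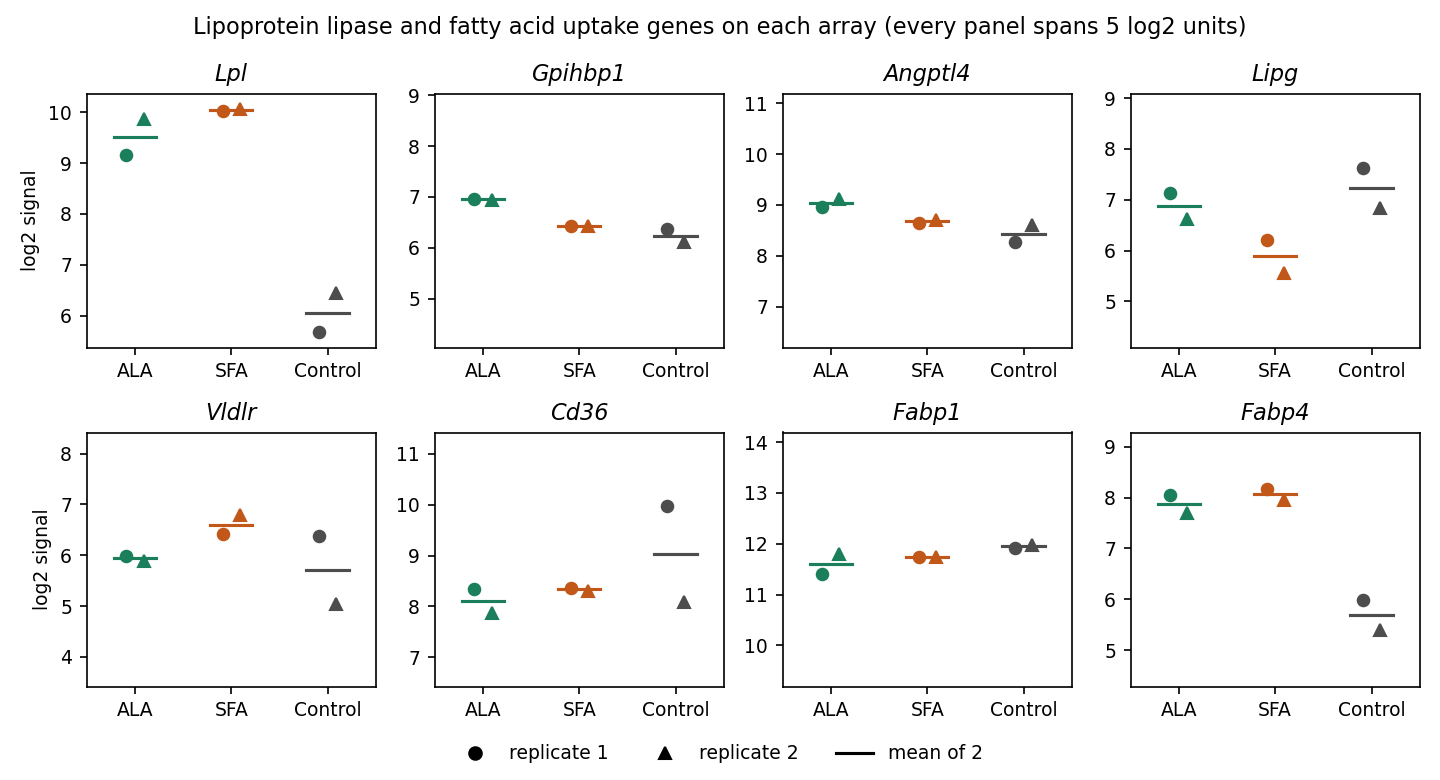
Log2 signal of the 8 measured genes on each array, with ALA, SFA and Control from left to right, replicate 1 as circles, replicate 2 as triangles and a bar at the mean of the 2. Every vertical axis spans 5 log2 units, so distances compare between panels. Lpl and Fabp4 separate Control from both other groups, and Cd36 stands high on Control replicate 1 alone.

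Differences were smaller for the partners of lipoprotein lipase. Gpihbp1 had log2 signals of 6.96 and 6.94 in the ALA pools, 6.44 and 6.43 in the SFA pools, and 6.37 and 6.11 in the Control pools. It rose in ALA livers, by 0.72 (SE 0.13, adjusted p = 0.0256, limma), or 1.64-fold. In SFA livers its change was 0.19 (SE 0.13, adjusted p = 0.361), with a 95% interval from -0.12 to 0.51. The direct difference, ALA minus SFA, was 0.52 (SE 0.13, adjusted p = 0.0948) and did not pass, although the groups did not overlap. The ALA call was lost in 5 of the 6 fits that leave out 1 array, where the adjusted p reached 0.117 without Control replicate 2.

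Angptl4, the inhibitor, had log2 signals of 8.95 and 9.12 in the ALA pools, 8.64 and 8.71 in the SFA pools, and 8.27 and 8.60 in the Control pools. The 3 groups did not overlap, in the order ALA, SFA, Control. The changes were 0.60 for ALA minus Control (SE 0.15, adjusted p = 0.0599, limma) and 0.24 for SFA minus Control (SE 0.15, adjusted p = 0.322), and neither passed. After quantile normalization, with a signal minimum of 6 or with an intensity trend in the fit, the ALA change passed (adjusted p = 0.04996, 0.0419 and 0.0268).

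Lipg had log2 signals of 7.14 and 6.62 in the ALA pools, 6.22 and 5.56 in the SFA pools, and 7.63 and 6.83 in the Control pools. It was lowest in the SFA pools, which lay below every other array. Its log2 signal fell by 1.34 in SFA livers (SE 0.33, adjusted p = 0.0403, limma), while for ALA minus Control the change was -0.35 (SE 0.33, adjusted p = 0.567). The direct difference, ALA minus SFA, was 0.99 (SE 0.33, adjusted p = 0.145). The SFA call was lost in all 6 fits without 1 array, where the change ranged from -1.74 to -0.95, and after quantile normalization (adjusted p = 0.0544).

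Vldlr had log2 signals of 5.99 and 5.88 in the ALA pools, 6.41 and 6.79 in the SFA pools, and 6.37 and 5.04 in the Control pools. The Control arrays enclosed the ALA arrays and lay below the SFA arrays. The change was 0.23 for ALA minus Control (SE 0.39, adjusted p = 0.759, limma) and 0.90 for SFA minus Control (SE 0.39, adjusted p = 0.163). The Control arrays decided these values. Without Control replicate 1 the SFA change was 1.57 and passed (adjusted p = 0.0162). Without Control replicate 2 it was 0.23 (adjusted p = 0.540) and the ALA change was -0.43 (adjusted p = 0.323).

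The uptake genes Fabp1 and Cd36 showed no called change. Fabp1 had log2 signals of 11.40 and 11.80 in the ALA pools, 11.74 and 11.74 in the SFA pools, and 11.92 and 11.97 in the Control pools. The Control arrays were the highest by a small margin. The change was -0.34 for ALA minus Control (95% interval -0.71 to 0.02, adjusted p = 0.229, limma) and -0.21 for SFA minus Control (95% interval -0.58 to 0.16, adjusted p = 0.399).

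Cd36 had log2 signals of 8.34 and 7.87 in the ALA pools, 8.37 and 8.31 in the SFA pools, and 9.98 and 8.10 in the Control pools. Control replicate 1 stood above all other arrays, and Control replicate 2 lay among them. The gap of 1.88 between the Control arrays was wider than or equal to that of 99.6% of the 10977 tested genes, whose median gap was 0.15. The change was -0.93 for ALA minus Control (SE 0.53, adjusted p = 0.334, limma) and -0.70 for SFA minus Control (SE 0.53, adjusted p = 0.406). Without Control replicate 2 these were -1.87 and -1.64 and passed (adjusted p = 0.0227 and 0.0292), and without Control replicate 1 they were 0.0081 and 0.24 and did not (adjusted p = 0.991 and 0.540).

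Fabp1 and Cd36 are textbook targets of the peroxisome proliferator-activated receptors (PPARs), fatty acid sensing nuclear receptors that bind a pair of half-sites spaced by 1 base. Promoter windows were available for 4 members, Fabp1, Cd36, Vldlr and Lipc, and not for Lpl, Fabp4 or Angptl4. The windows of Fabp1 and Cd36 are shown. Each runs from 250 bases before to 50 after the start in RefSeq (GRCm38.p6), Fabp1 at chr6:71199629-71199928 on the plus strand and Cd36 at chr5:17835847-17836146 on the minus strand. Capitals mark matches to a direct repeat of the half-site AGGNCA with 1 base between the copies, and to the TATA box TATAAA, both searched on either strand.
Fabp1: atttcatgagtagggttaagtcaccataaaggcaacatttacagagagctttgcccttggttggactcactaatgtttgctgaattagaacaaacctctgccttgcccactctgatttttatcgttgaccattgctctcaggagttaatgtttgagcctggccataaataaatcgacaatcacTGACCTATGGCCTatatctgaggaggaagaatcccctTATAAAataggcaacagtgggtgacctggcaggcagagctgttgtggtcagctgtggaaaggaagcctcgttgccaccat
Cd36: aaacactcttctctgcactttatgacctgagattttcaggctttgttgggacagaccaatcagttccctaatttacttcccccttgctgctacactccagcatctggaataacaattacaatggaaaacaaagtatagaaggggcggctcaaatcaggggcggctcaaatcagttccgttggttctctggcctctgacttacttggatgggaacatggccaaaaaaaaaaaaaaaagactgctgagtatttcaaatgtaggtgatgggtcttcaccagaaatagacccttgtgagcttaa

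The Fabp1 window holds the repeat as TGACCTATGGCCT, starting at position -67 from the transcription start, and a TATA box at -30. Of the 32851 windows of this length, 125 (0.381%) hold the repeat and 13.6% the TATA box. The Cd36 window shown holds neither in these letters.

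Read over the set, 3 of the 8 members were called in ALA livers and 3 in SFA livers. In ALA livers Lpl, Fabp4 and Gpihbp1 rose and none fell, where 7.93% of all 10977 tested genes were called, 5.11% higher and 2.82% lower. In SFA livers Lpl and Fabp4 rose and Lipg fell, where 13.8% were called, 6.62% higher and 7.15% lower. That balance over all genes depended on the scaling: 727 genes were higher and 785 lower as deposited, 967 and 528 after quantile normalization, 957 and 586 after cyclic loess, and 1004 and 515 after centring on the 75th percentile. The median change of the 8 members was 0.42 for ALA minus Control and 0.22 for SFA minus Control, against -0.01 and -0.05 over all tested genes. The arrays of the groups did not overlap for 5 of 8 members in ALA minus Control and 7 of 8 in SFA minus Control, where 55.0% and 64.2% of all genes did not, so these shares say little about the members. An unadjusted p below 0.05 was met by 4 of 8 members for ALA and 3 of 8 for SFA minus Control, against 24.7% and 31.9% of all genes.

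No member was called between ALA and SFA by limma, with 2 of 8, Gpihbp1 and Lipg, at an unadjusted p below 0.05. Over all genes 1.53% were called in that comparison, 1.09% higher and 0.437% lower, and 22.4% had an unadjusted p below 0.05. The arrays did not overlap for 5 of 8 members, against 55.8% of all genes. The difference was -0.53 for Lpl (95% interval -1.25 to 0.19) and -0.19 for Fabp4 (95% interval -0.72 to 0.35). The interval of Lpl reaches below -1 log2 unit, that is, a level lower by more than 1 unit in ALA than in SFA livers, and the interval of Fabp4 does not.

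**Figure D2:**
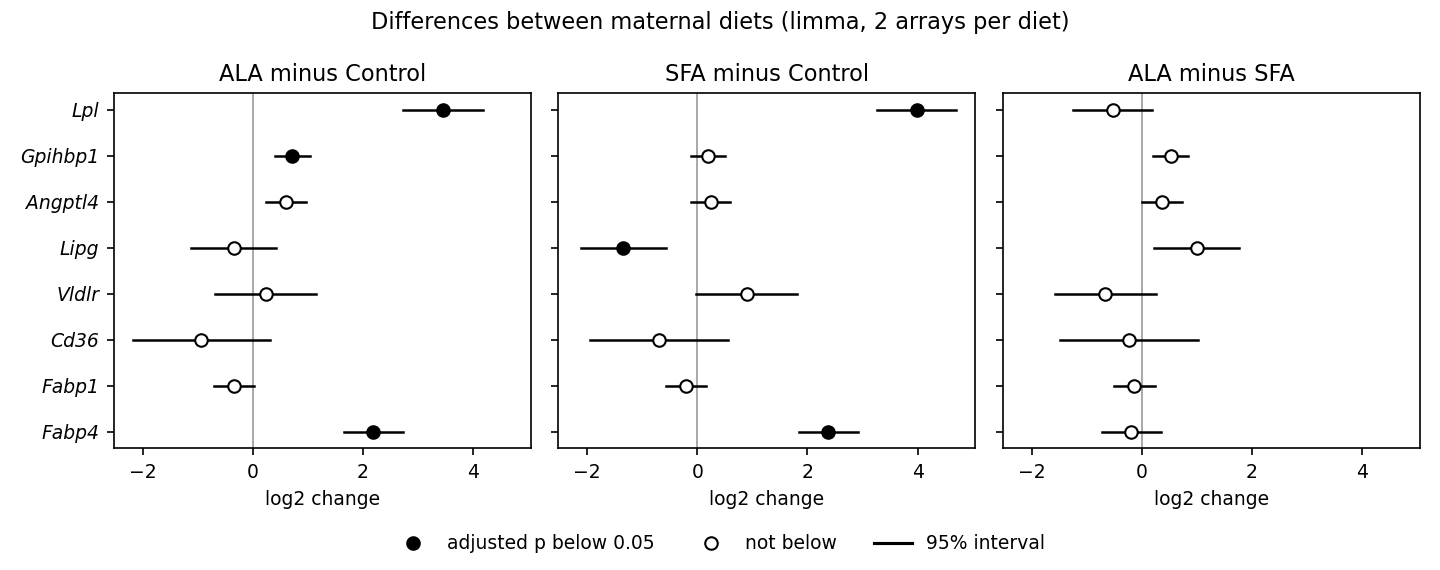
Log2 change of each member between diets (points) with its 95% interval from the limma fit (lines). Filled points had an adjusted p below 0.05. Lpl and Fabp4 stand at 3.45 and 2.19 for ALA minus Control and at 3.98 and 2.38 for SFA minus Control, and no point is filled for ALA minus SFA.

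For the members, the Control arrays set much of the error. Over all tested genes the Control pair was not the widest, with a median gap of 0.15, against 0.17 for ALA and 0.13 for SFA. For 7 of the 8 members the gap between the 2 Control arrays was wider than that between the ALA arrays and that between the SFA arrays, with Fabp1 as the exception. The gap was 1.88 for Cd36, 1.33 for Vldlr, 0.79 for Lipg, 0.78 for Lpl and 0.61 for Fabp4. The changes of Lpl and Fabp4 against Control were each wider than that gene's own gap. Set against Control replicate 1 alone, which like the SFA arrays had no Y-linked signal, the SFA change was 4.37 for Lpl and 2.07 for Fabp4. Set against Control replicate 2 alone, the ALA change was 3.07 for Lpl and 2.49 for Fabp4. That array had Y-linked signal like the ALA arrays but, unlike them, Xist signal too. It therefore does not match their sex makeup.

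Of 13 other tested partners and regulators of lipoprotein lipase, 1 rose and none fell in ALA livers, where 7.93% of all tested genes were called, and 1 rose and 1 fell in SFA livers, where 13.8% were called (median changes -0.0030 and -0.15). Hspg2, which encodes the heparan sulphate proteoglycan perlecan, was the gene that rose, by 0.99 in ALA livers (SE 0.19, adjusted p = 0.0270, limma) and 0.82 in SFA livers (SE 0.19, adjusted p = 0.0349). Each Hspg2 call was kept in 1 of the 6 fits that leave out 1 array, and without Control replicate 2 the changes were 0.71 and 0.54. Apoa5, an apolipoprotein that promotes triglyceride hydrolysis, had log2 signals of 10.46 and 10.38 in the ALA pools, 9.56 and 9.57 in the SFA pools, and 10.87 and 10.66 in the Control pools. The SFA arrays lay below all others. Apoa5 fell by 1.201 in SFA livers (SE 0.13, adjusted p = 0.0042), and it was higher in ALA than in SFA livers by 0.86 (SE 0.13, adjusted p = 0.0393), a call lost in every fit without 1 array. Lmf1, which is needed to fold the lipase, was at -0.29 and -0.15, Apoc3, an inhibitor of the lipase, at -0.0030 and -0.15, and Apoe at 0.03 and -0.10, for ALA and SFA minus Control, and none of them passed.

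Among 9 tested lipoprotein receptors and their regulators, 2 rose and 1 fell in ALA livers and 3 rose and 1 fell in SFA livers. The shares called over all tested genes were 7.93% and 13.8%. Mylip, which encodes a ligase that sends lipoprotein receptors, Vldlr included, to degradation, rose by 1.17 in ALA livers (SE 0.16, adjusted p = 0.0095, limma) and by 0.82 in SFA livers (SE 0.16, adjusted p = 0.0221). Sort1, a sorting receptor, fell by 1.01 in ALA livers (SE 0.13, adjusted p = 0.0077) and by 0.64 in SFA livers (SE 0.13, adjusted p = 0.0233). Msr1, a scavenger receptor of macrophages, rose by 0.78 in SFA livers (SE 0.16, adjusted p = 0.0272). Lrp1, a receptor for remnant particles, was at -0.04 and -0.40 for ALA and SFA minus Control and did not pass.

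The next counts stand beside 7.93% of all tested genes called in ALA livers, where 24.7% had an unadjusted p below 0.05, and 13.8% in SFA livers. Of 10 tested genes of fatty acid transport and activation, none was called in ALA livers (limma, 4 at an unadjusted p below 0.05). In SFA livers 1 rose and 1 fell. Cav1, the caveolin gene, rose by 1.03 (SE 0.18, adjusted p = 0.0150), and Scp2, a sterol and lipid carrier gene, fell by 1.03 (SE 0.22, adjusted p = 0.0280). The liver transporter Slc27a5 was at -0.18 and -0.05 for ALA and SFA minus Control and did not pass.

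Other fatty acid binding proteins did not follow Fabp4 as a family. Only 4 of the 12 measured had enough signal to be tested. Fabp7, known from the developing brain, rose by 1.19 in ALA livers (SE 0.26, adjusted p = 0.0396, limma) and by 1.18 in SFA livers (SE 0.26, adjusted p = 0.0306). Fabp2, the intestinal form, fell by 1.08 in ALA livers (SE 0.23, adjusted p = 0.0361) and by 0.87 in SFA livers (SE 0.23, adjusted p = 0.0490), and the SFA call was lost under each of the 3 other scalings. Leaving out 1 array kept the ALA calls of Fabp7 and Fabp2 in 1 of 6 fits each, with ranges of 0.76 to 1.63 and -1.44 to -0.73, and Fabp7 was lowest without ALA replicate 1 and Fabp2 closest to 0 without Control replicate 1. Fabp5, which macrophages and epidermis express, had log2 signals of 7.63 and 8.24 in the ALA pools, 9.05 and 9.04 in the SFA pools, and 6.603 and 7.54 in the Control pools. The SFA arrays were the highest, and the change was 1.97 for SFA minus Control (SE 0.32, adjusted p = 0.0125) and 0.86 for ALA minus Control, which did not pass (adjusted p = 0.153).

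The next lists hold genes that release and store triglyceride inside the cell, and their few calls say little about the lists. The shares called over all tested genes were 7.93% in ALA livers and 13.8% in SFA livers, where 31.9% had an unadjusted p below 0.05. Of 14 other lipases, 1 rose in ALA livers, Pnpla2, the adipose triglyceride lipase gene, by 0.80 (SE 0.15, adjusted p = 0.0252, limma). None of these lipases was called in SFA livers, where 3 had an unadjusted p below 0.05. Of 11 lipid droplet genes, Plin5, which links droplets to mitochondria, rose by 1.13 (SE 0.14, adjusted p = 0.0073) and Fitm1 fell by 0.87 (SE 0.15, adjusted p = 0.0203) in ALA livers, and none was called in SFA livers, where 3 had an unadjusted p below 0.05. After quantile normalization or 75th percentile centring 1 gene of the droplet list was called higher in SFA livers. Without 1 array, the ALA changes ranged from 0.65 to 0.96 for Pnpla2 and from -0.94 to -0.80 for Fitm1. Plin2, the droplet coat gene of hepatocytes, was at -0.59 and -0.28 for ALA and SFA minus Control and did not pass.

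Of 22 tested PPAR target genes, 1 rose and 3 fell in ALA livers and 2 rose and 3 fell in SFA livers (median changes -0.11 and -0.09). The shares called over all tested genes were 7.93% and 13.8%. The list leaves out Lpl and Fabp4, whose changes against Control were larger than any in it. The peroxisomal thiolase gene Acaa1b fell by 1.61 in ALA livers (SE 0.20, adjusted p = 0.0075, limma) and by 1.497 in SFA livers (SE 0.20, adjusted p = 0.0074). Vnn1, which encodes pantetheinase, fell by 1.45 in ALA livers (SE 0.27, adjusted p = 0.0256) and by 1.25 in SFA livers (SE 0.27, adjusted p = 0.0300). Pdk4, a kinase gene that spares glucose, rose by 1.95 in SFA livers (SE 0.45, adjusted p = 0.0347) and was at 1.35 for ALA minus Control, which did not pass. The SFA call of Pdk4 was kept in 1 of 6 fits without 1 array, and the change was 1.21 without Control replicate 2 and 2.68 without Control replicate 1. Without Control replicate 1 the ALA change was 2.08 and passed (adjusted p = 0.0214). Cpt1a, the entry enzyme of mitochondrial oxidation, was at 0.20 and 0.02. For 16 of the 24 measured genes of the list, the highest of the 6 arrays was Control replicate 1, the array on which Cd36 stood high. The share over all tested genes was not counted, and whether this is particular to the list was not tested. The mean log2 signal of the list was 9.41 on that array and between 8.79 and 9.03 on the other 5, with Control replicate 2 the lowest.

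Of 16 transcription factors and coactivators of fatty acid sensing, 2 rose in ALA livers and 1 in SFA livers, and none fell. Among all tested genes 7.93% and 13.8% were called, so these few calls say little about the list. The coactivator gene Ppargc1a rose by 1.63 in ALA livers (SE 0.21, adjusted p = 0.0083, limma) and by 1.04 in SFA livers (SE 0.21, adjusted p = 0.0251). Cebpb rose by 0.81 in ALA livers (SE 0.17, adjusted p = 0.0324). Ppara, the receptor most active in liver, was at -0.0029 and -0.29, and Pparg, the adipocyte receptor and a known regulator of Fabp4, at -0.23 and -0.07, and neither passed.

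**Figure D3:**
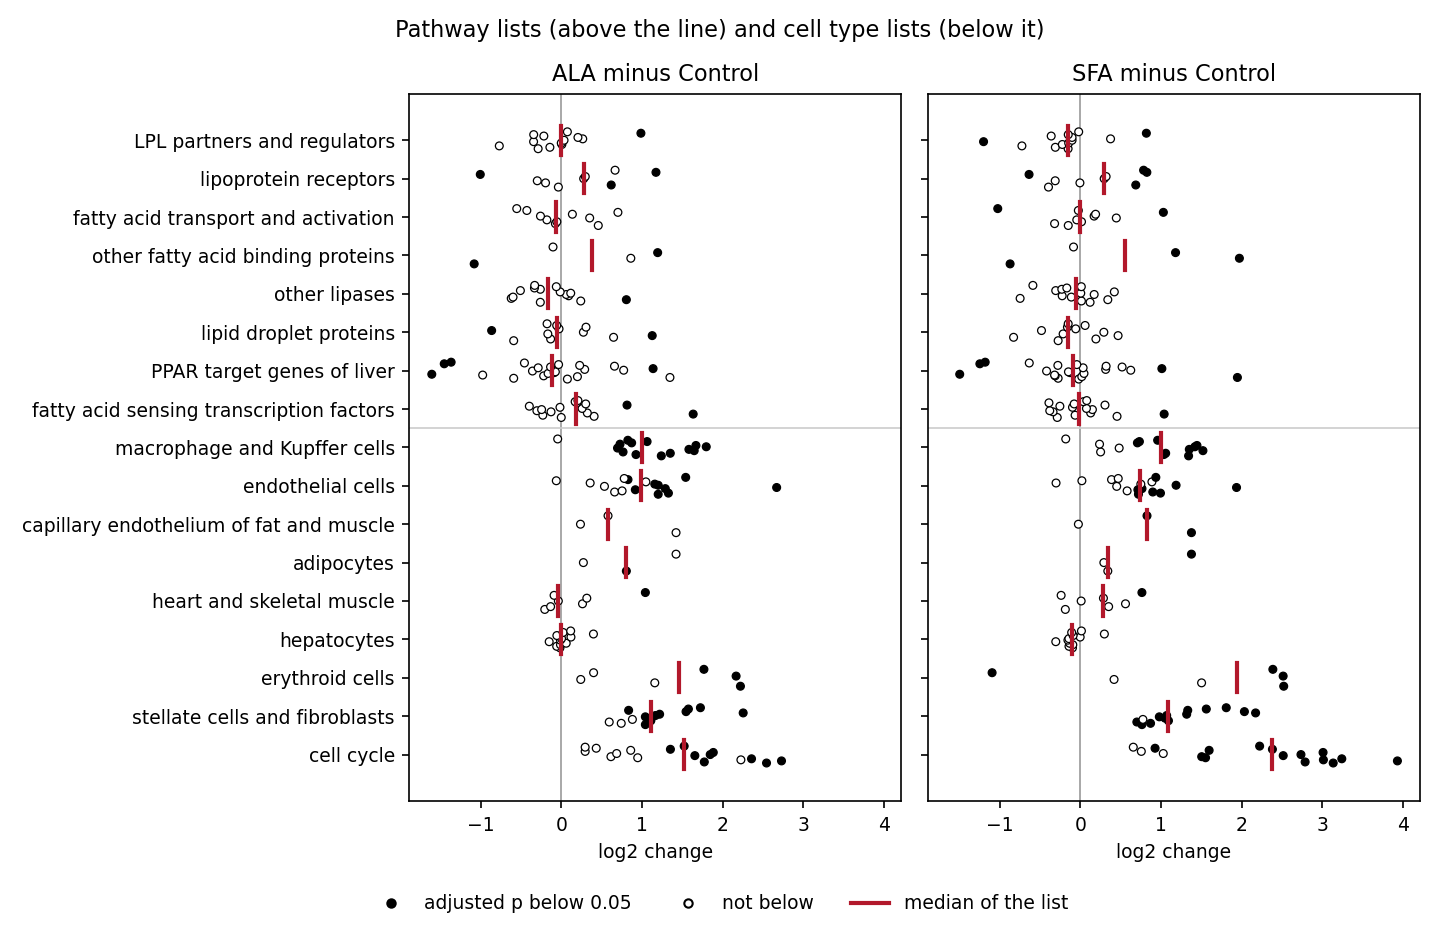
Log2 change of every tested gene of the pathway lists (above the grey line) and of the cell type lists (below it) for ALA minus Control and SFA minus Control. Filled points had an adjusted p below 0.05, and red bars mark list medians. The pathway medians stay between -0.16 and 0.55, and those of macrophages, endothelium, stellate cells, erythroid cells and cell cycle lie between 0.73 and 2.38.

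Cells other than hepatocytes can express Lpl, Fabp4 and Gpihbp1, and markers of several such cells also rose. Gpihbp1 itself was called in ALA livers only. In whole liver, more cells of a type and more RNA per cell cannot be told apart. Among all tested genes, 5.11% were called higher in ALA livers and 6.62% in SFA livers. Of 14 tested macrophage and Kupffer cell genes, 13 rose in ALA livers and 10 in SFA livers, and none fell (median changes 0.99 and 1.00). Their mean log2 signal was 7.79 to 8.18 in the ALA pools, 7.73 to 7.85 in the SFA pools, and 6.97 to 6.99 in the Control pools. The complement gene C1qb rose by 1.80 in ALA livers (SE 0.18, adjusted p = 0.0047, limma) and C1qc by 1.67 in ALA and 1.45 in SFA livers. Vsig4, a complement receptor gene, rose by 1.52 in SFA livers. The Kupffer cell lectin gene Clec4f rose by 0.76 in ALA livers (SE 0.14, adjusted p = 0.0246, limma). For SFA minus Control Clec4f did not pass, and its change lay between 0.13 and 0.37 without 1 array.

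Of 16 endothelial genes, 9 rose in ALA livers and 8 in SFA livers, and none fell (median changes 0.98 and 0.73). Their mean log2 signal was 7.91 to 8.02 in the ALA pools, 7.66 to 7.67 in the SFA pools, and 6.67 to 7.23 in the Control pools. Lyve1, a gene of sinusoidal endothelium, rose by 2.67 in ALA livers (SE 0.25, adjusted p = 0.0040, limma) and by 1.94 in SFA livers (SE 0.25, adjusted p = 0.0065). The endothelial adhesion gene Pecam1 rose by 1.199 in ALA livers (SE 0.16, adjusted p = 0.0093) and by 0.72 in SFA livers (SE 0.16, adjusted p = 0.0342). Oit3 rose by 1.54 in ALA livers and Emcn by 1.19 in SFA livers. Gpihbp1 had the same order of group means as this list, ALA above SFA above Control, and so did Angptl4 and the macrophage list.

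Of 14 genes of stellate cells and fibroblasts, 11 rose in ALA livers and 13 in SFA livers. Their mean log2 signal was 7.58 to 7.71 in the ALA pools, 7.69 to 7.71 in the SFA pools, and 6.28 to 6.61 in the Control pools. Postn, which encodes periostin, rose by 2.25 in ALA and 2.17 in SFA livers, Rgs5 by 1.72 in ALA livers and Acta2, a smooth muscle actin gene, by 2.03 in SFA livers. Of 17 cell cycle genes, 9 rose in ALA livers and 14 in SFA livers, with none falling, and of 6 erythroid genes 3 rose in each, while Ermap fell in SFA livers. The mean signal of the cell cycle genes was 5.87 to 6.95 in the ALA pools, 7.07 to 7.21 in the SFA pools, and 5.03 to 5.04 in the Control pools. Ccna2 rose by 2.73 in ALA and 3.93 in SFA livers, Mki67 by 2.54 in ALA and 3.14 in SFA livers and the kinase gene Cdk1 by 3.24 in SFA livers. The naming rule works by contrast, so a gene given for 1 diet may have changed in the other too. Slc4a1, the red cell anion exchanger gene, rose by 2.22 in ALA and 2.52 in SFA livers, and Tfrc, the transferrin receptor gene, by 2.17 and 2.51. The part of any of these cells in the Lpl, Fabp4 and Gpihbp1 changes was not tested.

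Markers of fat were low. Adipoq, the adiponectin gene, had log2 signals of 3.50 and 3.65 in the ALA pools, 3.48 and 3.23 in the SFA pools, and 3.52 and 3.49 in the Control pools, all under 4.42. Of 11 measured adipocyte genes, 6 were at or under 4.42 on every array and 3 were tested. Their mean signal was 4.67 to 4.85 in the ALA pools, 4.66 to 4.81 in the SFA pools, and 4.53 to 4.60 in the Control pools. All 3 tested were higher in both groups than in Control (median changes 0.80 and 0.34). Called in this list were Pnpla2 in ALA livers and the glycerol channel gene Aqp7 in SFA livers, by 1.38 (SE 0.35, adjusted p = 0.0439, limma). For ALA minus Control Aqp7 was at 1.42, which did not pass. Aqp7 is also known from capillaries. Of 7 genes of capillary endothelium in fat and muscle, 3 were at or under 4.42 on every array, 3 were tested, and Aqp7 and Sox18 (0.83) rose in SFA livers. Of 7 tested muscle genes, Des, which stellate cells also express, was the only gene called in ALA or SFA livers, and the creatine kinase gene Ckm was at -0.21 and -0.19. The tissue label was borne out by hepatocyte genes, whose 12 measured members had a mean signal between 11.79 and 11.95 on every array. None of the 12 was called by limma, with 1 for ALA and 2 for SFA minus Control at an unadjusted p below 0.05. Albumin (Alb) was at -0.06 for ALA minus Control and -0.14 for SFA minus Control.

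The genes whose pattern was nearest to Lpl were sought among 10599 other named and tested genes, by the distance between log2 signals centred on each gene's mean over the 6 arrays. The 5 nearest were Gpc3, a fetal growth regulator gene, at a distance of 0.77, D17H6S56E-5 at 1.07, the cyclin gene Ccna2 at 1.08, the proliferation marker gene Mki67 at 1.15 and Igf2bp3, a fetal RNA-binding protein gene, at 1.41. Fabp4, the nearest member, was at 2.11. Ccna2 had log2 signals of 6.45 and 7.89 in the ALA pools, 8.35 and 8.39 in the SFA pools, and 4.41 and 4.48 in the Control pools. Like Lpl, these genes were lowest on both Control arrays and lower on ALA replicate 1 than on ALA replicate 2.

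The 3 genes nearest to Fabp4 were the defensin gene Defb1 at 0.30, Igfbp3, which encodes a carrier of insulin-like growth factors, at 0.32, and Ccdc80, which encodes a secreted matrix protein, at 0.34. Those nearest to Cd36 were Nr4a1 at 0.33 and Atf3 at 0.49, both immediate early transcription factor genes, and the insulin receptor substrate gene Irs2 at 0.65. Nr4a1 had log2 signals of 5.35 and 5.17 in the ALA pools, 5.47 and 5.41 in the SFA pools, and 7.27 and 5.48 in the Control pools, so it too stood high on Control replicate 1 alone. Angptl4 had close neighbours in Cibar1 at 0.13, Fam222b at 0.15 and Elk1 at 0.15, all of small range. These distances are descriptions over 6 arrays that share 3 diets.

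**Figure D4:**
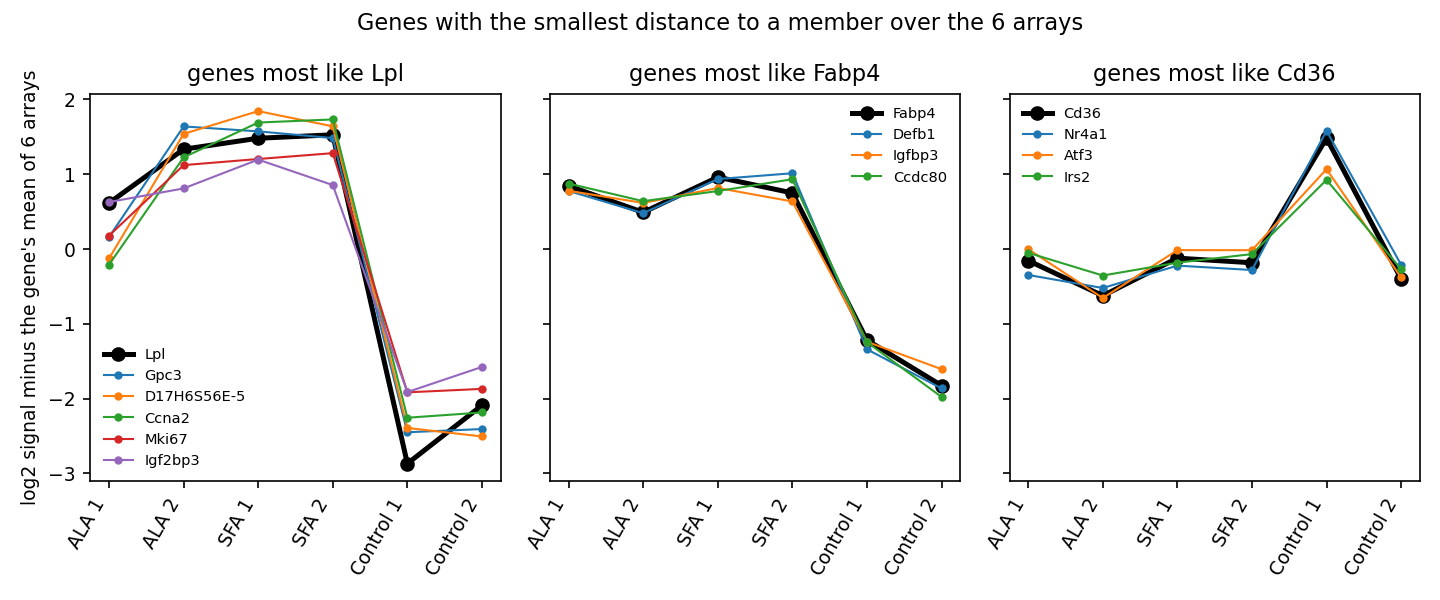
Log2 signal minus each gene's own mean over the 6 arrays, for Lpl, Fabp4 and Cd36 (black) and the named genes with the smallest distance to each (coloured), arrays in the order ALA, SFA, Control. Lpl and Fabp4 and their neighbours drop on both Control arrays, while Cd36 and its neighbours peak on Control replicate 1.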

How the data were processed

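The deposited table holds log2 signals of 35556 probes on 6 arrays, and per the submitters' processing notes the authors used RMA and Partek 6.6. The log base is not written with the values and was taken from their range, 1.98 to 13.1. RMA settings and genome build are not given in the sources used here, and no further scaling was applied.

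Symbols came from the platform annotation, where 21789 probes had 1 symbol, 1621 several and 12146 none listed. The 10977 of 19938 genes with a mean log2 signal of at least 5 were tested in R 4.3.3 with limma 3.58.1: a mean for each of the 3 diets, no block, empirical Bayes moderation and Benjamini-Hochberg adjustment over all tested genes, called below 0.05, two-sided. SE and 95% intervals come from that fit, with 3 residual degrees of freedom and 4.05 prior ones from the moderation. The number of arrays limits the precision. The procedure was tested on simulated data.

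The members, gene lists and naming rule were chosen with earlier results of these data known. Named are all members, for each list and contrast the 2 called genes with the largest change, 21 fixed genes, of which 5 are not analysed here, and the genes nearest to 4 members. Lists were described by counts and medians and not tested. Alternatives were a replicate block, 3 scalings, other signal minima, the mean of probes, an intensity trend, 2-group fits and leaving out each array.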

Additional observations from a re-analysis of the deposited data

How the results depend on the processing

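Lpl and Fabp4 were called higher in both comparisons with Control under all 15 alternatives. These are not independent of one another. For a given comparison, the 2-group fit is the same as the fits that leave out an array of the third diet. The mean of probes leaves the signals of the members unchanged, as each has 1 probe. The members were also chosen by these differences. Over the members' changes and alternatives, 335 kept direction and side of the threshold, 14 lost the call, 6 gained it and 5 turned. Without 1 array, the values ranged from -1.87 to 0.0081 (Cd36), -0.43 to 0.90 (Vldlr) and -0.75 to 0.047 (Lipg) for ALA minus Control, from -1.64 to 0.24 (Cd36) for SFA minus Control, and from -0.33 to 0.062 (Fabp1) for ALA minus SFA. The number of members called stayed at 2 to 4 (ALA), 2 to 3 (SFA) and 0 (ALA minus SFA).

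The number of genes called was 871 for ALA minus Control, 448 with only the 2 groups compared and 267 to 475 without 1 array. For SFA minus Control it was 1512, and 245 to 1428 without 1 array. For ALA minus SFA it was 168, against 68 (quantile), 76 (cyclic loess), 100 (75th percentile centring), 32 (no signal minimum), 293 (minimum of 6), 421 (intensity trend), 11 (only the 2 groups compared) and 0 to 36 without 1 array. With a replicate block, limma called 719, 1232 and 0 genes and changed no member's call, and same-numbered arrays did not deviate together (correlations 0.02, -0.03 and -0.0040). Centring on the 75th percentile moved the median change of all genes for ALA minus SFA to -0.07, against 0.04 as deposited.

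Some small changes of other genes turned. For ALA minus Control, Ppara was at 0.017 (quantile) and 0.015 (cyclic loess), and without 1 array the ranges were -0.063 to 0.057 (Ppara), -0.53 to 0.062 (Pparg), -0.15 to 0.071 (Lrp1), -0.055 to 0.049 (Apoc3), -0.022 to 0.086 (Apoe), -1.40 to 0.052 (Atf3) and -1.13 to 0.066 (Irs2). For SFA minus Control, centring on the 75th percentile gave 0.029 (Pparg) and 0.04997 (Slc27a5), quantile normalization -0.016 (Cpt1a) and 0.0103 (Alb), and cyclic loess -0.026 (Cpt1a). Without 1 array the ranges there were -0.36 to 0.23 (Pparg), -0.019 to 0.052 (Cpt1a), -0.55 to 0.17 (Ckm), -1.08 to 0.37 (Atf3), -1.05 to 0.14 (Irs2) and -0.0076 to 0.36 (Cibar1). The cause was not tested.

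Of the calls of named genes other than the members, 15 of 32 for ALA minus Control, 14 of 32 for SFA minus Control and 0 of 2 for ALA minus SFA were kept in all 6 limma fits without 1 array. Kept in at most 2 of the 6 were those of Cebpb, Clec4f, Elk1, Fabp2, Fabp7, Fitm1, Hspg2, Pnpla2 and Vnn1 for ALA minus Control, of Aqp7, Cav1, Cdk1, Des, Fabp7, Hspg2, Pdk4, Pecam1 and Ppargc1a for SFA minus Control, and of Apoa5 and Ermap for ALA minus SFA.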
